A study of Mus musculus with 60 samples.

Results

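The respiratory chain and ATP synthase genes were the nuclear genes whose platform symbol begins with Nduf, Uqcr, Cox4 to Cox8 or Atp5, or is Sdha, Sdhb, Sdhc or Sdhd. They numbered 90 of the 18193 genes measured, with 179 probe sets, and each gene was read from its brightest probe set at the timepoint. By complex they were 34 subunits of complex I with 8 complex I assembly factors, 4 subunits of complex II, 8 of complex III, 19 of complex IV and 17 of complex V. Complex IV here includes Ndufa4 and Ndufa4l2 despite their symbols. It also includes testis isoforms and Cox7a2l, a factor tied to assemblies of several complexes (supercomplexes). The compared mice were MSTN-null C57BL/6J animals, which lack functional myostatin, a secreted brake on skeletal muscle growth, and wild-type C57BL/6J animals. Each genotype was sampled at 13.5 days post coitum (d.p.c.) as the whole embryo, at 17.5 d.p.c. as the hindquarters and on postnatal day 35 (d35) as the pectoralis muscle. Every timepoint had 5 MSTN-null and 5 wild-type pools, each of which held RNA of 3 animals, and every pool was run on chips A and B of the Affymetrix MOE430 set, for 60 arrays in all. The structure of the null allele and the sex of the mice were not given in the sources used here, and Mstn itself was not analysed here. All values are log2 signals after RMA, an array normalization, and all differences are MSTN-null minus wild-type.

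The tissues were mixtures. At d35 the skeletal muscle markers were among the brightest probe sets (median percentile 99.8 of all genes), but adipocyte transcripts were bright as well, with the brown fat uncoupling protein Ucp1 at percentile 98.2. At 17.5 d.p.c. the liver list had a median percentile of 99.2 beside 98.4 for the skeletal muscle list, and the mean log2 level of the liver list ran from 8.61 to 12.90 in MSTN-null pools and from 11.88 to 13.55 in wild-type pools. In such bulk samples fewer cells of a type and less RNA per cell cannot be told apart. Signals of different probe sets do not measure relative amounts, so percentiles only show how bright a probe set was.

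The mitochondrial respiratory chain moves electrons from NADH and succinate to oxygen. Complex I (NADH dehydrogenase) and complex II (succinate dehydrogenase) pass them to ubiquinone, complex III passes them to cytochrome c, and complex IV (cytochrome c oxidase) reduces oxygen to water. Complexes I, III and IV pump protons across the inner membrane, and complex V, the ATP synthase, uses the return of those protons to make ATP. Slow-twitch muscle fibres and brown adipocytes are rich in mitochondria, whereas the fastest fibres rely more on glycolysis. Some complex IV subunits exist as pairs, with a general isoform made in most tissues and an isoform of heart and skeletal muscle. A few core subunits are encoded by the mitochondrial genome. Among probe sets with a single symbol, 0 carried one that began with mt-Nd, mt-Co, mt-Cytb or mt-Atp. Other names were not searched, and the results cover nuclear genes only.

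In d35 pectoralis muscle, 9 of the 90 genes were downregulated in MSTN-null mice and 0 were upregulated, by limma with a Storey q below 0.05. The downregulated genes were Cox6a1, Cox8a, Cox7a2l, Cox7a1 and Cox4i1 of complex IV, Ndufs8 and Ndufa10 of complex I, Sdha of complex II and Uqcrq of complex III. They made up 10.0% of the 90 genes. An unadjusted p below 0.05 was reached by 26 genes (28.9%, against 20.3% of all genes), each with a negative difference. Over all genes, 3.26% were downregulated and 2.7% upregulated at this timepoint. The whole group lay slightly below zero: 78 of 90 differences were negative (86.7%), with a median of -0.08 and a range from -0.55 to 0.11. The median over all genes was 0.01, and 44.9% of all genes had a negative difference.

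**Figure D1:**
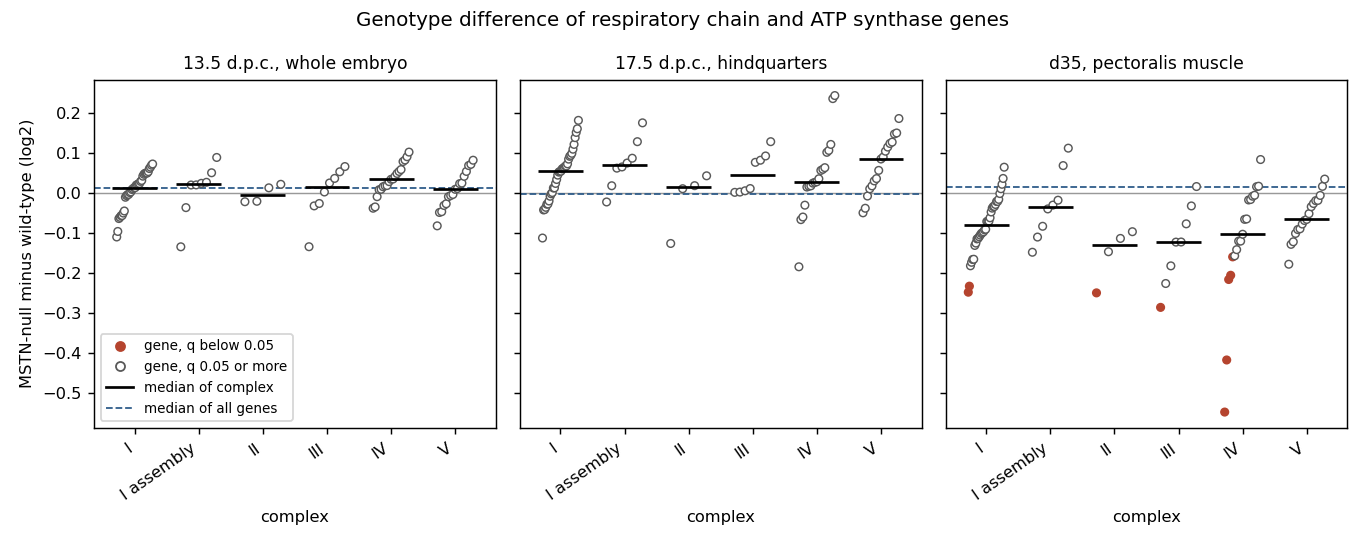
Each point is the MSTN-null minus wild-type difference (log2) of one gene, by complex, at each timepoint, with filled points for q below 0.05, black bars for complex medians and a dashed line for the median of all genes. All 9 filled points are at d35 and below zero, and complex IV holds 5 of them.

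Every complex had a negative median at d35, and no difference between complexes was tested. The median was -0.08 for complex I (30 of 34 genes negative), -0.13 for complex II (4 of 4), -0.12 for complex III (7 of 8), -0.10 for complex IV (16 of 19) and -0.07 for complex V (15 of 17). The 8 complex I assembly factors, which help build the complex but are not part of it, had a median of -0.04 with 6 negative and 0 called. Complex IV had 5 of its 19 genes called (26.3%) and complex V had 0 of 17 called, beside 3.26% of all genes downregulated.

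Averaged over all 90 genes and centred on the 10 pools, the mean log2 level was -0.09, -0.04, -0.04, -0.02 and -0.03 in MSTN-null pools 1 to 5, against 0.05, -0.06, 0.02, 0.09 and 0.11 in wild-type pools 1 to 5. The MSTN-null pools lay close together, and wild-type pool 2 lay among them, so the genotypes overlapped. For complex IV the same mean ran from -0.11 to -0.02 in MSTN-null pools and from 0.00 to 0.09 in wild-type pools, without overlap. That separation rested on 2 genes. Without Cox6a1 and Cox8a, a choice made after seeing the data, the mean of the other 17 genes was -0.05, -0.05, -0.005, -0.04 and -0.05 in MSTN-null pools 1 to 5, against 0.04, -0.05, 0.03, 0.08 and 0.08 in wild-type pools 1 to 5, so the genotypes overlapped at wild-type pool 2. For complexes I, II, III and V and the assembly factors the pools of the genotypes overlapped.

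**Figure D2:**
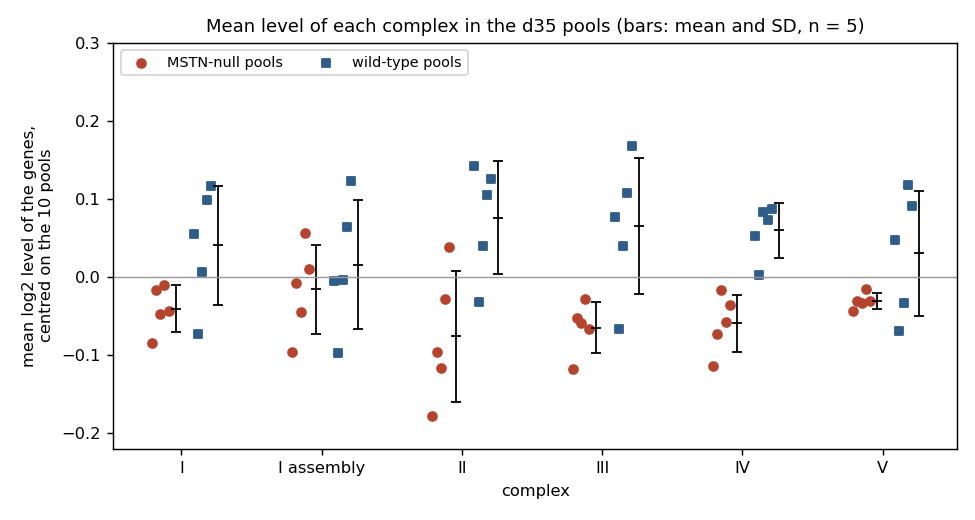
Points are the mean log2 level of the genes of each complex in each d35 pool, centred on the 10 pools, with MSTN-null pools to the left of wild-type pools and bars for the mean and SD of 5 pools. The genotypes separate for complex IV, which rests on Cox6a1 and Cox8a, and wild-type pool 2 lies below zero in every other group of genes.

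Complex I receives electrons from NADH through a peripheral arm of flavin and iron-sulfur proteins. Ndufs8 carries iron-sulfur clusters of that arm. Its signal was 12.32, 12.50, 12.35, 12.43 and 12.26 in MSTN-null pools 1 to 5, against 12.63, 12.49, 12.63, 12.54 and 12.81 in wild-type pools 1 to 5. The groups met only where MSTN-null pool 2 lay just above wild-type pool 2, and the difference was -0.25 (SE 0.07, q = 0.0398, 0.842-fold). The other Ndufs8 probe sets were not called and differed from -0.23 (q = 0.0670) to -0.0007. Ndufa10 is an accessory subunit of the membrane side. Its signal was 12.02, 12.05, 12.00, 11.90 and 12.00 in MSTN-null pools, against 12.30, 12.19, 12.25, 12.14 and 12.25 in wild-type pools. The groups did not overlap, and the difference was -0.23 (SE 0.05, q = 0.0139, 0.851-fold). Ndufb3, an accessory subunit, lay just outside the threshold (-0.17, q = 0.0539).

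Complex II is both a citric acid cycle enzyme and an entry point of electrons. Sdha, its flavin-carrying catalytic subunit, had signals of 12.02, 12.06, 12.06, 12.11 and 12.29 in MSTN-null pools and 12.42, 12.26, 12.30, 12.36 and 12.45 in wild-type pools. MSTN-null pool 5 alone reached the wild-type range, and the difference was -0.25 (SE 0.06, q = 0.0258, 0.841-fold). The iron-sulfur subunit Sdhb and the membrane anchors Sdhc and Sdhd had differences of -0.15 (q = 0.133), -0.10 (q = 0.321) and -0.11 (q = 0.183) and were not called.

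In complex III, Uqcrq, a small subunit beside cytochrome b, had signals of 11.90, 11.93, 11.91, 11.95 and 12.00 in MSTN-null pools, against 12.25, 12.08, 12.15, 12.26 and 12.39 in wild-type pools. The groups did not overlap, and the difference was -0.29 (SE 0.06, q = 0.0123, 0.820-fold). This reading rests on 1 probe set of the _s_at type, which matches several transcripts, because the other 3 Uqcrq probe sets were dim and gave differences from -0.05 to 0.03. The hinge subunit Uqcrh lay just outside the threshold (-0.23, q = 0.0506), and Uqcrb, the brightest complex III probe set, differed by 0.02 (q = 0.572).

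Complex IV held the largest differences of the group. Cox6a1, the general isoform of a regulatory subunit, had signals of 11.59, 12.11, 12.17, 12.13 and 12.43 in MSTN-null pools, against 12.45, 12.92, 12.94, 12.36 and 12.49 in wild-type pools. It averaged 12.08 ± 0.31 in MSTN-null pools and 12.63 ± 0.27 in wild-type pools (SD, n = 5 each), a difference of -0.55 (SE 0.15, q = 0.0427, 0.684-fold). Its spread was wide, and MSTN-null pool 5 lay within the wild-type range. Cox8a, the general isoform of the smallest subunit, showed the same pattern, with signals of 10.66, 10.97, 11.18, 11.02 and 11.30 in MSTN-null pools and 11.38, 11.60, 11.64, 11.23 and 11.36 in wild-type pools. Its difference was -0.42 (SE 0.11, q = 0.0399, 0.749-fold), and again MSTN-null pool 5 reached the wild-type range.

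The other 3 called complex IV genes changed less but with narrow spreads. Cox7a1, the heart and muscle isoform of subunit VIIa, had signals of 11.86, 11.80, 11.77, 11.85 and 11.78 in MSTN-null pools, against 11.97, 11.93, 11.96, 12.13 and 12.10 in wild-type pools, a difference of -0.21 (SE 0.05, q = 0.0338, 0.867-fold). Cox7a2l, a factor tied to supercomplexes of complexes III and IV, differed by -0.22 (SE 0.05, q = 0.0297, 0.861-fold). Its signals ran from 9.96 to 10.09 in MSTN-null pools and from 10.11 to 10.33 in wild-type pools, and supercomplexes were not measured. Cox4i1, the general isoform of a core nuclear subunit, differed by -0.16 (SE 0.04, q = 0.0438, 0.895-fold), with signals from 13.13 to 13.20 in MSTN-null pools and from 13.25 to 13.36 in wild-type pools. In these 3 genes, as in Ndufa10 and Uqcrq above, the genotypes did not overlap. The genes were picked by their calls on the same values, so this is no separate support.

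**Figure D3:**
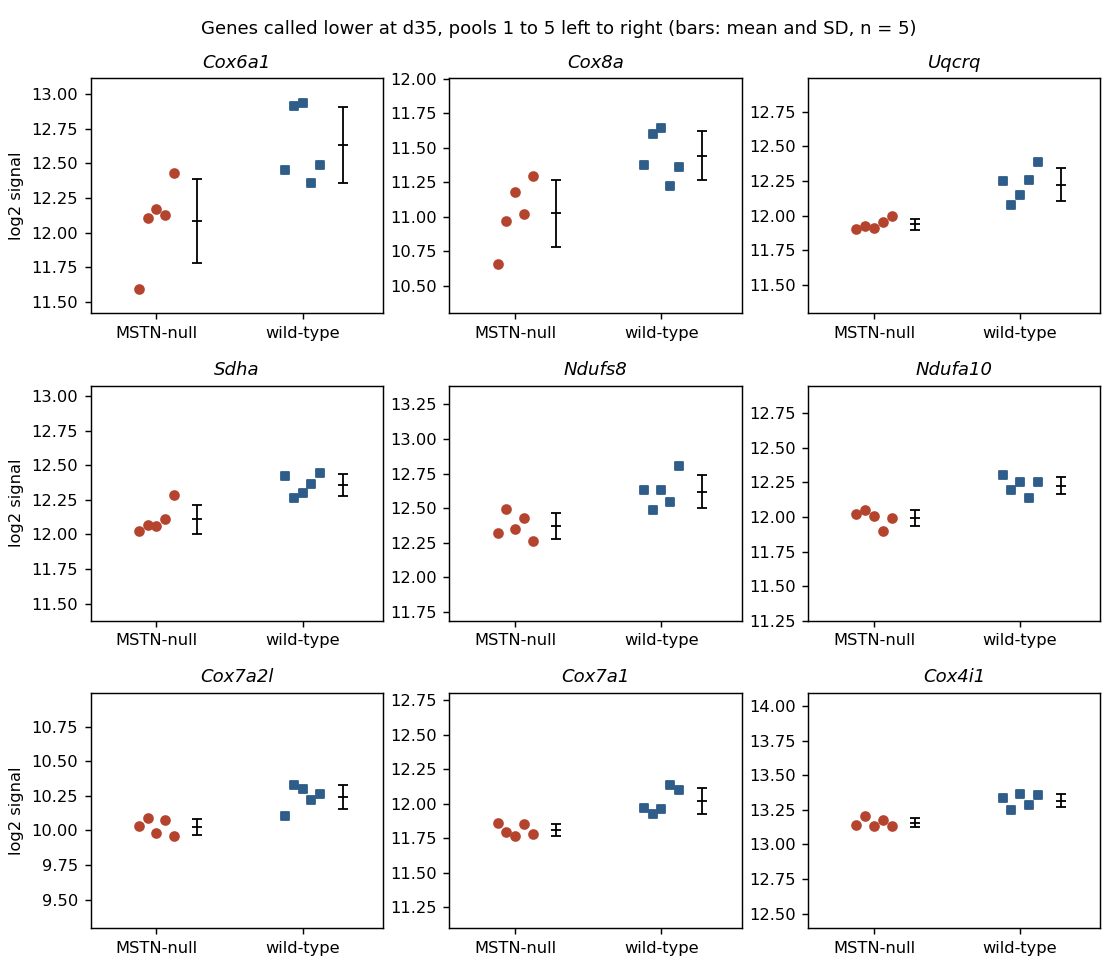
Points are log2 signals of the 9 downregulated genes in MSTN-null pools (left) and wild-type pools (right) at d35, with pools 1 to 5 from left to right and bars for the mean and SD of 5 pools. The panels span equal ranges on the y axis, so the wide spread of Cox6a1 and Cox8a and the tight groups of Uqcrq and Cox4i1 can be compared.

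In complex V, 0 of 17 genes passed the threshold, at a timepoint where 3.26% of all genes were downregulated. An unadjusted p below 0.05 was reached by 3 of the 17 (17.6%, against 20.3% of all genes). The gene with the smallest p was Atp5e, the epsilon subunit of the catalytic head, which differed by -0.18 (SE 0.05, q = 0.0605), with signals from 12.23 to 12.36 in MSTN-null pools and from 12.36 to 12.59 in wild-type pools, which met at MSTN-null pool 2 and wild-type pool 2. The 3 genes that encode the same subunit c of the membrane rotor, Atp5g1, Atp5g2 and Atp5g3, differed by -0.02, 0.03 and -0.01. Atp5a1, whose product is a main part of the catalytic head and whose probe set was the brightest of complex V, differed by -0.03 (q = 0.526).

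Complex IV isoform pairs are given next, since in each pair 1 isoform was called at d35 and the other was not. For Cox6a1 and Cox6a2 the general isoform was called and the heart and muscle isoform differed by 0.02 (SE 0.06, 95% confidence interval -0.11 to 0.14). For Cox7a2 and Cox7a1 it was the other way round: Cox7a1 was called and the general Cox7a2 differed by -0.01 (SE 0.04). For Cox8a and Cox8b the general isoform was called, and Cox8b, with a difference of -0.16 (SE 0.07, q = 0.149), was not. Outside these pairs, Cox4i2, the lung isoform of subunit IV, differed by 0.01, the testis isoforms Cox6b2 and Cox8c by -0.12 and -0.01, and Cox6b1 by -0.10 (q = 0.152).

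Whether a pair shifted was tested on the log2 ratio of the general to the muscle isoform, with an exact two-sided permutation test over the 10 pools, in 9 tests (3 pairs at 3 timepoints) with a smallest possible p of 0.00794. The ratio is one of signals and serves to compare genotypes only. At d35 the Cox6a1 to Cox6a2 ratio differed by -0.56 (-0.86 ± 0.29 in MSTN-null pools and -0.30 ± 0.37 in wild-type pools, exact p = 0.0317, adjusted 0.143). The Cox7a2 to Cox7a1 ratio differed by 0.20 (1.24 ± 0.08 in MSTN-null pools and 1.05 ± 0.09 in wild-type pools, exact p = 0.0159, adjusted 0.143). The Cox8a to Cox8b ratio differed by -0.26 (exact p = 0.143, adjusted 0.314). None of the 9 adjusted p-values was below 0.05, so a difference between the isoforms of a pair was not shown. With 9 tests, a single pair at the smallest possible p would not have passed either. The test therefore could not decide whether a single pair shifted.

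**Figure D4:**
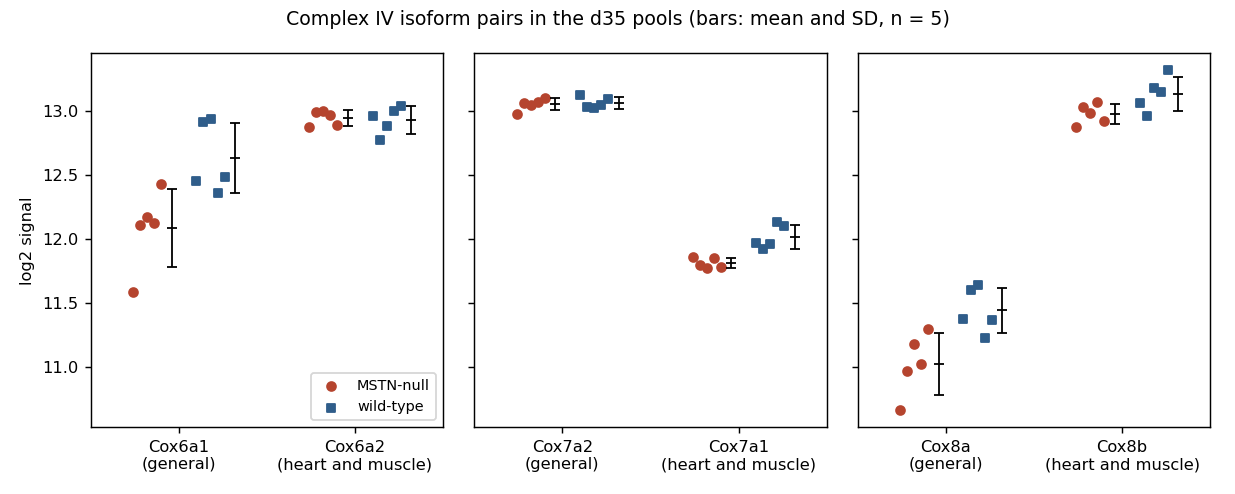
Points are log2 signals of 3 complex IV isoform pairs in the d35 pools, with the general isoform on the left of each panel, MSTN-null pools to the left of wild-type pools and bars for the mean and SD of 5 pools. The general isoforms Cox6a1 and Cox8a and the muscle isoform Cox7a1 average lower in MSTN-null pools. The genotypes do not overlap for Cox7a1, overlap at MSTN-null pool 5 for Cox6a1 and Cox8a, and overlap for Cox6a2 and Cox7a2.

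Promoters are shown for 5 of the 6 isoforms above, so that the general and muscle isoforms can be read side by side. Cox6a2 is named only. RefSeq sequences of assembly GRCm38.p6, from 250 bases before to 50 bases after the start of the gene, were matched by gene ID for 74 of the 90 genes. Both strands were searched for 4 elements known from mitochondrial genes: NRF1 (GCGCNTGCGC), the ETS core bound by GABPA (CCGGAAG), the YY1 element (AAGATGGCG) and the oestrogen related receptor element (TCAAGGTCA). Capitals mark the matches. Cox6a1 (chr5:115348909-115349208, minus strand), Cox8a (chr19:7217567-7217866, minus strand), Cox8b (chr7:140900397-140900696, minus strand), Cox7a2 (chr9:79759804-79760103, minus strand) and Cox7a1 (chr7:30183921-30184220, plus strand) read 5′ to 3′ as follows.
Cox6a1: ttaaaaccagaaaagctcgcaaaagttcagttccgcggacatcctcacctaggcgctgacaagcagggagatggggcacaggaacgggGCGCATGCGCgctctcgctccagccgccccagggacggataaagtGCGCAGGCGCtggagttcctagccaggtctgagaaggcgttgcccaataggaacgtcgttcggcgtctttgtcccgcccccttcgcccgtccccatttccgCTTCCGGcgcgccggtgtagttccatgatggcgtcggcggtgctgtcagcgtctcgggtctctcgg
Cox8a: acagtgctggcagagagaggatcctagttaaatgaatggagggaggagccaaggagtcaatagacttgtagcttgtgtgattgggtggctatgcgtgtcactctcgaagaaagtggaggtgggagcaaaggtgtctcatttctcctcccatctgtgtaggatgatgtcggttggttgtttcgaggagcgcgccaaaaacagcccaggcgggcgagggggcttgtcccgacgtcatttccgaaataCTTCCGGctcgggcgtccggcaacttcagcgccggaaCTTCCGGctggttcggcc
Cox8b: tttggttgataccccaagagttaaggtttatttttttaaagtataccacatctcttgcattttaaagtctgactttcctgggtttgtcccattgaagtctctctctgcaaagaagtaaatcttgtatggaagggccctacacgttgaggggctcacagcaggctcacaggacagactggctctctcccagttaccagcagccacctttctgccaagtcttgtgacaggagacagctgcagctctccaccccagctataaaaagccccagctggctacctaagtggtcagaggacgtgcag
Cox7a2: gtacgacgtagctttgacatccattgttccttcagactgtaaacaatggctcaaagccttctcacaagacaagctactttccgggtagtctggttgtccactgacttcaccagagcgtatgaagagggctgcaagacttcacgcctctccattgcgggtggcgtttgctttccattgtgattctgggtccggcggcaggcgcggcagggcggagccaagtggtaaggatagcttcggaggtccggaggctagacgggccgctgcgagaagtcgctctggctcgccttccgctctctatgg
Cox7a1: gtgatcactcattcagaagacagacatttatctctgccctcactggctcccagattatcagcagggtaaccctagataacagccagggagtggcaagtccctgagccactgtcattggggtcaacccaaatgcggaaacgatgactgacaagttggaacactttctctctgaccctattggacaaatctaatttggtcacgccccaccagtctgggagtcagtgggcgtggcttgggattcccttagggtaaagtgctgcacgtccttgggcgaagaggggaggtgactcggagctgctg

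The Cox6a1 promoter held NRF1 matches that begin at positions -162 (on both strands) and -117 and a GABPA match at position -16, counted from the start of the gene. The Cox8a promoter held GABPA matches at -5 and 33. The general isoform Cox7a2 and the muscle isoforms Cox8b and Cox7a1 held 0 matches to the 4 elements, so matches did not divide general from muscle isoforms. The ratio of observed to expected CpG was 1.08 for Cox6a1, 0.842 for Cox8a and 0.833 for Cox7a2, and it was 0.115 for Cox8b and 0.333 for Cox7a1, beside a median of 0.389 over all promoters. The Sdha promoter (chr13:74350191-74350490, minus strand) is shown as well because it held NRF1 matches at 3 positions, the most among the 7 downregulated genes whose promoter was searched (Cox4i1 and Uqcrq were not).
Sdha: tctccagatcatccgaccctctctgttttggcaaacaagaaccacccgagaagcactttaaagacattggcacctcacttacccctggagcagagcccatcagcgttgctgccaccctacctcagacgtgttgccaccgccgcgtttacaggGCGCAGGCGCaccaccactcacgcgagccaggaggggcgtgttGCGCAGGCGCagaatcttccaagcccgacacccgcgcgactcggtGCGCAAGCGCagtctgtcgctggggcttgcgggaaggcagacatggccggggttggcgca
Among the 74 genes, 16 promoters held an NRF1 match (21.6%, against 4.78% of all 27025 promoters), 18 a GABPA match (24.3%, against 9.12%), 6 a YY1 match (8.11%, against 1.49%) and 2 an oestrogen related receptor element (2.7%, against 0.407%). At least 1 element was found in 35 of the 74 (47.3%), against 3891 of all promoters (14.4%), and in 4 of the 7 downregulated genes, which were Cox6a1, Cox8a, Ndufs8 and Sdha. The 74 promoters were also richer in GC (median 59.0%, against 52.7% of all promoters) and in CpG (median ratio 0.831, against 0.389), and the part of base composition in the matches was not tested. A match is a run of letters and was not tested as a binding site.

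Over single probe sets, 18 of the 179 were downregulated at d35 and 0 upregulated, against 2.5% of all probe sets downregulated. They belonged to 15 genes. In 6 of these genes (Cox5b, Ndufab1, Ndufb8, Ndufv1, Ndufv2 and Sdhd) only a dimmer probe set was called. Ndufv2, a flavoprotein arm subunit of complex I, differed by -0.11 (q = 0.210) at its brightest probe set and by -0.24 (q = 0.0108) at the next. Cox5b, whose brightest probe set was the brightest of all 90 genes, differed by -0.14 (q = 0.0824) there and by -0.17 (q = 0.0444) at a dimmer probe set. For Cox6a1 both probe sets were called (-0.55 and -0.69), and for Cox8a both bright probe sets were (-0.42 and -0.44). The least bright probe sets of the group at d35 were those of Cox7b2 (4.15), Cox7c (4.86) and Ndufb4 (5.48), which carry little information on these genes.

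At 13.5 d.p.c. whole embryos gave no called gene: 0 of 90 were downregulated and 0 upregulated, against 0.302% and 0.022% of all genes. An unadjusted p below 0.05 was reached by 4 of 90 genes (4.44%), against 10.0% of all genes. The median difference was 0.02, with 30 negative and 60 positive, and 0.01 over all genes. The smallest p belonged to Ndufaf4, a complex I assembly factor, at 9.78, 9.80, 9.81, 9.75 and 9.82 in MSTN-null pools and 9.92, 10.04, 10.03, 9.85 and 9.81 in wild-type pools (difference -0.14, q = 0.228). Wild-type pool 5 lay among the MSTN-null pools. Per complex the smallest p belonged to Ndufa10 (-0.10, q = 0.315), Sdhb (0.02), Uqcrc2 (-0.13, q = 0.277), Cox5b (0.10, q = 0.277) and Atp5c1 (0.08, q = 0.355).

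At 17.5 d.p.c. hindquarters also gave 0 called genes in either direction, and 0.0% of all genes were called downregulated or upregulated. Here the sign was mostly the other way: 72 of 90 differences were positive, with a median of 0.05, whereas the median over all genes was -0.003 and 51.4% were negative. All 8 complex III genes had a positive difference. Only 3 of 90 genes (3.33%) had an unadjusted p below 0.05, against 3.09% of all genes. Atp5md, a small ATP synthase subunit, had the smallest p and did not overlap between genotypes, with signals between 10.43 and 10.56 in MSTN-null pools, against 10.32 to 10.37 in wild-type pools (difference 0.15, SE 0.05, q = 1). Ndufb1 (0.14), Sdha (-0.13), Uqcr11 (0.13) and Cox6a2 (0.23) had the smallest p of their complexes. Cox6a2 ran from 10.93 to 11.26 in MSTN-null pools and from 10.61 to 11.16 in wild-type pools, and Cox8b differed by 0.24.

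The pools of this timepoint differed widely. Averaged over the 90 genes, the centred mean level was 0.09, 0.10, 0.06, -0.08 and -0.06 in MSTN-null pools 1 to 5, against -0.01, -0.08, 0.06, -0.03 and -0.07 in wild-type pools 1 to 5. MSTN-null pools 4 and 5 lay with the lower wild-type pools, and wild-type pool 3 lay with the higher MSTN-null pools. The fast-twitch and skeletal muscle lists had positive differences in 12 of 12 and 6 of 6 genes with 0 called, and the liver list had negative differences in 7 of 7 with 0 called. The part of tissue makeup in the positive median was not tested.

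The genotype difference itself was compared between timepoints in a fit of all 30 pools, for the probe set that was brightest at the later timepoint. Between d35 and 13.5 d.p.c. it differed for 4 of 90 genes, against 1.47% of all genes. These were Ndufs8 (-0.38, SE 0.08, q = 0.0161), Cox4i1 (-0.21, SE 0.05, q = 0.0357), Cox7a2l (-0.27, SE 0.07, q = 0.0433) and Cox6a1 (-0.58, SE 0.15, q = 0.0450), each more negative at d35. Part of the Ndufs8 value came from 13.5 d.p.c., where the same probe set differed by 0.13 (limma q = 0.153). The Ndufs8 probe set that was brightest at 13.5 d.p.c. differed by 0.06 there. Between d35 and 17.5 d.p.c. it differed for 1 of 90 genes, Ndufa10 (-0.30, SE 0.07, q = 0.0427), against 1.06% of all genes. Between 17.5 and 13.5 d.p.c. it differed for 0 of 90 genes and 0.0% of all genes. For the other called genes the q of both d35 contrasts was above 0.05, as for Cox8a (0.0726 and 0.0882) and Uqcrq (0.328 and 0.143), so a difference between timepoints was not shown for them. With 1 d35 pool left out, the first contrast gave 1 gene without MSTN-null pool 1 or 3 or wild-type pool 3 and 2 genes without wild-type pool 2 or 5, and in the second Ndufa10 kept its call only without MSTN-null pool 2 or wild-type pool 4. The second gave 0 genes without MSTN-null pool 1, 3 or 4 or wild-type pool 2, 3 or 5, 2 other genes without MSTN-null pool 5 and 1 other gene without wild-type pool 1, and 2 genes without wild-type pool 4. The tissue changes with the timepoint, and age and tissue cannot be told apart.

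Lists of other mitochondrial genes held few called genes at d35, where 3.26% of all genes were downregulated and 44.9% had a negative difference. Of 30 further assembly factors measured 1 was downregulated, Lrpprc (-0.25, q = 0.0298), which stabilizes mitochondrial transcripts, a share close to that of all genes, and 20 were negative. Of 26 carriers, pores and import genes 2 were downregulated, Slc25a5 (-0.30, q = 0.0497) and the import motor part Timm44 (-0.21, q = 0.0332). Slc25a5 is a general ADP/ATP carrier, and its heart and muscle counterpart Slc25a4 differed by -0.01 (q = 0.624). Of 6 partners of the complexes, such as cytochrome c, 0 were called and 3 were negative. Of 76 mitochondrial ribosomal protein genes 5 were downregulated (Mrpl3, Mrpl34, Mrpl39, Mrpl44 and Mrps9, from -0.26 to -0.22), with a median of -0.03 over the list. None of these lists had an upregulated gene at d35.

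The citric acid cycle, which supplies NADH and succinate to the chain, had 2 of 13 measured genes downregulated, Idh3b (-0.26, q = 0.0305) and Dlst (-0.16, q = 0.0465), and 12 of 13 negative, with a median of -0.15, beside 3.26% downregulated and 44.9% negative over all genes. Among 16 regulators of mitochondrial genes 3 were downregulated: the nuclear receptors Esrrg (-0.78, SE 0.13, q = 0.00469) and Ppara (-0.71, SE 0.18, q = 0.0342) and the coactivator Ppargc1b (-0.30, SE 0.08, q = 0.0322). The coactivator Ppargc1a differed by -0.52 (SE 0.23, q = 0.161), and the factors whose elements were searched above, Nrf1, Gabpa and Yy1, differed by -0.05, -0.17 and -0.09 and were not called. At 13.5 d.p.c. 1 regulator was downregulated, the mitochondrial transcription factor Tfb2m (-0.27, q = 0.0364). At 17.5 d.p.c. 0 genes of any of these lists were called, and 70 of 76 mitochondrial ribosomal protein genes had a positive difference.

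Fibre type and adipocyte markers moved with the genotype at d35. Over all genes, 3.26% were downregulated, 2.7% were upregulated and 44.9% had a negative difference. All 9 slow-twitch markers were downregulated, with a median of -2.10, and their mean log2 level ran from 8.50 to 9.40 in MSTN-null pools and from 10.49 to 11.12 in wild-type pools. Of 12 fast-twitch markers 4 were upregulated (Actn3, Mybpc2, Myoz1 and Casq1, from 0.20 to 0.27) and 1, Myh1, was downregulated (-0.20). Of 7 white adipocyte markers measured 4 were downregulated (Cidec, Fabp4, Lipe and Pparg) and 7 were negative, with a mean level from 8.31 to 9.22 in MSTN-null pools and from 9.15 to 9.52 in wild-type pools. Of 5 brown adipocyte markers 3 were downregulated (Cidea, Elovl3 and Dio2) and 5 were negative, with a mean level from 8.47 to 9.28 in MSTN-null pools and from 9.20 to 9.71 in wild-type pools. Ppargc1a, counted among the regulators above, is 1 of these 5. Of 4 endothelial markers 2 were downregulated (Kdr and Tek), and the liver, erythroid, macrophage and cardiac lists had 0 called. The Ucp1 signal lay between 10.02 and 11.83 in MSTN-null pools, against 11.30 to 11.94 in wild-type pools (difference -0.74, limma q = 0.0865), while Lep, the dimmest adipocyte marker, averaged 5.64 in MSTN-null pools and 5.68 in wild-type pools. The 3′ minus 5′ signal of the actin control, a sign of RNA integrity, ran from 0.06 to 0.21 in MSTN-null pools and from 0.13 to 0.58 in wild-type pools on chip A. On chip B it did not overlap at 13.5 d.p.c. (0.29 to 0.32 in MSTN-null pools, 0.16 to 0.23 in wild-type pools). The chip B Gapdh control did not overlap at 17.5 d.p.c. (-0.08 to -0.005 in MSTN-null pools, -0.001 to 0.04 in wild-type pools). Elsewhere the actin and Gapdh controls overlapped, and the part of RNA integrity in the embryonic differences was not tested.

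In 2 genes the extreme pools were those of the adipocyte lists, though the full pool order was not the same. MSTN-null pool 4 lay above MSTN-null pool 2 in both genes and below it in both lists. Cox6a1 and Cox8a were lowest in MSTN-null pool 1 and highest among MSTN-null pools in pool 5, which were the pools with the lowest and highest mean of both adipocyte lists, and wild-type pools 2 and 3 were the highest of their group in both genes and both lists. The general carrier Slc25a5 had these extreme pools too. Cox7a1 and Uqcrq did not, since wild-type pool 2 was the lowest wild-type pool in each. Parts of the pattern were not particular to the adipocyte lists. Among MSTN-null pools, pool 1 was lowest and pool 5 highest also in the assembly factor, carrier and citric acid cycle lists. Wild-type pools 2 and 3 were the highest of their group also in the macrophage and erythroid lists. None of these other lists held both parts. Without wild-type pools 2 and 3, left out with these levels known, 3 of the 9 genes kept their call, namely Uqcrq (-0.36, q = 0.00739), Sdha (-0.30, q = 0.0432) and Cox7a1 (-0.26, q = 0.0498). The other 6 lost it: Cox6a1 (-0.35), Cox8a (-0.30), Ndufs8 (-0.29), Ndufa10 (-0.24), Cox7a2l (-0.17) and Cox4i1 (-0.17). For Ndufs8, Ndufa10 and Cox4i1 the difference was slightly larger than with all pools, so their calls were lost without a smaller difference. This fit held fewer wild-type pools, and its share of all genes called is not given here. Wild-type pools 2 and 3 were the 2 highest wild-type pools of Cox6a1 and Cox8a and the 2 lowest of Uqcrq, Sdha and Cox7a1. The choice of pools itself thus fixed which way those 5 differences moved, so the 3 kept calls are no check of these genes. The part of adipocytes, fibre type, endothelial cells and RNA integrity in the d35 differences was not tested.

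**Figure D5:**
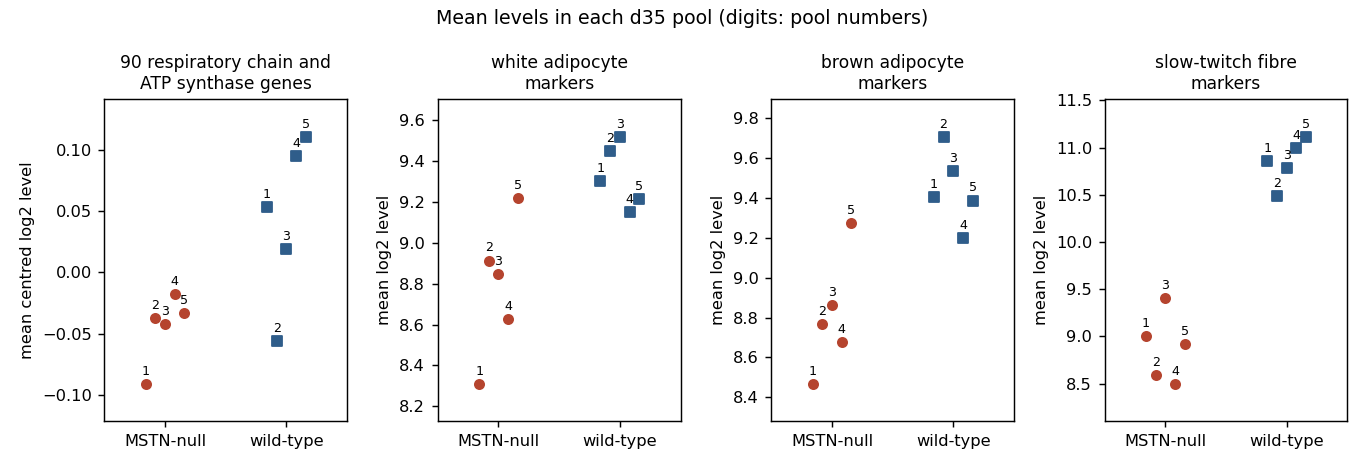
Points are mean levels in each d35 pool, labelled by pool number, for the 90 genes (centred log2) and for the white adipocyte, brown adipocyte and slow-twitch marker lists (log2), with MSTN-null pools on the left. MSTN-null pool 1 is lowest and pool 5 highest of the MSTN-null pools in both adipocyte panels, and the slow-twitch panel shows the widest gap between genotypes.

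The count of 9 downregulated genes changed when single pools were left out, with no share of all genes given for these smaller fits. It was 2 without MSTN-null pool 1, MSTN-null pool 3 or wild-type pool 3, 3 without MSTN-null pool 4 or wild-type pool 5, 4 without MSTN-null pool 2, 5 without MSTN-null pool 5 or wild-type pool 1, and 7 without wild-type pool 2 or 4. With Benjamini-Hochberg adjustment in place of Storey q it was 4 (Ndufa10, Uqcrq, Sdha and Cox7a2l). Ndufa10 kept its call in 19 of 20 alternatives and Uqcrq in 18 of 20, with a turn to 0.02 (q = 0.583) where _x_at and _s_at probe sets were left out, whereas Cox4i1 kept it in 6, Cox7a1 and Ndufs8 in 8 each, Cox6a1 and Cox8a in 10 each, Sdha in 11 and Cox7a2l in 12. The median difference of the 90 genes stayed negative in all 20, from -0.12 to -0.06.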

How the data were processed

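Whole embryos, hindquarters and pectoralis muscle of MSTN-null and wild-type mice were measured on 60 Affymetrix arrays (chips A and B of the MOE430 set), in 30 RNA pools. The authors used RMA, as implemented in affy (its version is not given in the sources used here), and the deposited values are log2 signals, from 2.78 to 15.3. RMA and tissues differ between timepoints, so genotypes were compared within a timepoint. Groups and pool numbers came from the sample titles. Each chip's 64 control probe sets were dropped and the 100 probe sets shared by the chips were read from chip A, which left 45037, of which 34945 carry 1 gene symbol in the platform annotation, 932 several and 9160 none. The 10 probe sets that name a member beside another gene were left out of the gene counts.

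All probe sets were fitted per timepoint with limma 3.58.1 (lmFit, then eBayes; R 4.3.3). Storey q-values (lambda 0.05 to 0.95 in steps of 0.05) were computed over all of them, and a gene with q below 0.05 was called. The contrast between timepoints was fitted over all 30 pools. The pipeline was tested on simulated data. Precision is set by 5 pools per group, and arrays give no depth. Genes named singly were those called, the smallest p per complex and timepoint, the complex IV and subunit c isoforms, the brightest and dimmest 3 at d35 and genes whose probe sets disagreed (37 in all). The genes just outside the threshold, Sdhb, Sdhc, Sdhd and Ndufaf4, and single genes of the pathway and marker lists were named after their values were seen. Isoform ratios were tested by exact permutation with Benjamini-Hochberg adjustment. The members and lists were chosen with earlier results of these data known. Tables and figures used Python 3.11.15, pandas 2.3.3, numpy 2.4.6, scipy 1.17.1 and matplotlib 3.10.9.

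Same-numbered pools were not treated as pairs. Alternatives covered p-value adjustment, each chip alone, dim probe sets, further normalization, variance moderation, a single fit, a block, the choice of probe set and each pool left out.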

Additional observations from a re-analysis of the deposited data

Results flagged for a closer look

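In groups of 5 pools, 6 of the 116 groups tested held a pool set apart from the other 4 by more than Dixon's critical gap, and chance alone sets apart about 1 group in 20. At d35 the MSTN-null pool 3 stood apart for Atp5g2 (12.03, with the other MSTN-null pools between 11.94 and 11.97) and for Cox4i2 (7.71, with the others between 7.37 and 7.39). Among wild-type pools at d35, pool 4 stood apart for Cox7c (5.21, with the others between 4.79 and 4.83) and pool 2 for Ndufv2 (12.55, with the others between 12.73 and 12.80). The mean of complex III stood apart in MSTN-null pool 3 at 13.5 d.p.c. (0.0609, with the others between -0.03 and -0.01). The mean of complex IV stood apart in wild-type pool 3 at 17.5 d.p.c. (0.0685, with the others between -0.06 and -0.04).

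The genotype difference at d35 differed from that at 13.5 d.p.c., by the limma contrast of the 2 differences with q below 0.05, for Cox4i1 (-0.21), Cox6a1 (-0.58), Cox7a2l (-0.27) and Ndufs8 (-0.38). It differed from that at 17.5 d.p.c. for Ndufa10 (-0.30). Each is the d35 difference minus the earlier one.

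A probe set outside the gene counts, which carries both the symbol Ndufab1-ps and the symbol Ndufab1, was downregulated at d35 (-0.21, limma q = 0.0289).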

How the results depend on the processing

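The count of 9 downregulated genes at d35 was 4 with Benjamini-Hochberg adjustment, 5 with the replicate number as a block, 3 without wild-type pools 2 and 3 together, and between 2 and 7 with 1 pool left out. It was 9 to 13 under the other alternatives except the removal of _x_at and _s_at probe sets, which gave 7 of 85 genes, and 0 genes were upregulated in any of them. After a further quantile normalization the count was 9, with 7 genes shared, and 68 of 90 differences were negative. The d35 against 13.5 d.p.c. contrast (4 genes) gave 2 with Benjamini-Hochberg adjustment and between 1 and 5 with 1 d35 pool left out. The d35 against 17.5 d.p.c. contrast (1 gene) gave 0 with Benjamini-Hochberg adjustment and between 0 and 2 with 1 d35 pool left out. The share of all genes called under these alternatives is not given here, so a fall common to all genes cannot be told apart. Uqcrq turned to 0.0234 without _x_at and _s_at probe sets, since its bright probe set is then dropped. The mean difference of complex IV over the d35 pools was -0.12, and -0.08 without Cox6a1 and Cox8a, an alternative chosen after seeing the data. At both embryonic timepoints 0 genes were called under every alternative, and the median difference of the 90 genes stayed between 0.01 and 0.03 at 13.5 d.p.c. and between 0.02 and 0.07 at 17.5 d.p.c. Same-numbered pools correlated from -0.10 to 0.08 at 13.5 d.p.c., from -0.17 to 0.14 at d35 and from -0.20 to 0.48 at 17.5 d.p.c., where pools 1, 3 and 5 (0.30, 0.39 and 0.48) correlated best with their own number and pools 2 and 4 did not. Since not every pair exceeded 0.1, the numbers were not used as pairs, which leaves a shared origin of some pools untested. The precision is limited by 5 pools per group, and dim probe sets such as those of Cox7b2, Cox7c and Ndufb4 carry little signal over background.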
